A study of Mus musculus with 12 samples.

Results

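The transcripts of 10 CC chemokines, Ccl2, Ccl3, Ccl4, Ccl5, Ccl7, Ccl8, Ccl11, Ccl12, Ccl17 and Ccl22, were compared across bulk tumours of MC38, a mouse colon carcinoma line. They were the rows carrying these names in a table of 43698 rows of gene counts, 1 row for each name. All 10 passed the filter on low counts, which kept 19525 genes for testing.

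CC chemokines are small secreted proteins that bind receptors on white blood cells and draw those cells along a gradient. Ccl2, Ccl7, Ccl8 and Ccl12 are related, and Ccl2, Ccl7 and Ccl12 attract monocytes through the receptor Ccr2. Ccl11 (eotaxin) attracts eosinophils through Ccr3. Ccl3, Ccl4 and Ccl5 are made by activated T cells, NK cells and macrophages, while Ccl17 and Ccl22 are made by dendritic cells and macrophages and bind Ccr4 on regulatory and other T cells.

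The tumours grew under the skin of the left flank of C57BL/6J mice aged 8 weeks, and 12 libraries were made, 2 in each of 6 groups. Ctrl mice were given PBS. The single-agent groups received DOX (doxorubicin) at 14 µg or 0.56 mg/kg, DPD (read here as the doxorubicin prodrug) at the same dose, or RP, read here as Ru-PD-L1, an antibody against the checkpoint ligand PD-L1 that carries a catalyst, at 20 µg or 0.80 mg/kg. Injections were intraperitoneal, started on day 9 and were repeated every 3 days. In the combinations R+X (conjugate and DOX) and R+D (conjugate and DPD), 14 µg of the drug was placed beside the tumour 6 hours after the conjugate, whose dose is not stated for these groups. Tumours were taken on day 20. A drug injection beside the tumour was given only in the combinations, so its route and the combination cannot be told apart. The readings of R+X and R+D rest on the letters of the labels, and if they were exchanged the values of these groups would change places.

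Each library held between 46547114 and 56462259 counts. Levels are CPM, counts scaled to a common library size after adjustment of the libraries to each other by the trimmed mean of M values. The epithelial genes expected of a colon carcinoma were mostly near 0: Cdx2 had 0 counts in all 12 libraries, Krt8 reached 0.309 CPM, Krt18 0.134 CPM and Epcam 1.3 CPM, while Cdh1 ran from 9.90 to 18.1 CPM. RP replicate 1, RP replicate 2 and R+D replicate 2 stood apart from the other 9 libraries in skeletal muscle transcripts. The summed level of 12 muscle markers was 239, 88.6 and 313 CPM in these, against 10.7 to 26.6 CPM in the others. The same 3 libraries had the highest sums of 12 T and NK cell markers, 74.0, 84.7 and 89.4 CPM against 24.5 to 46.6 CPM in the others.

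The genes lie in 3 stretches of the mouse genome (GRCm38, GENCODE M21), and all 10 are annotated as protein coding. On the plus strand of chromosome 11, Ccl2 (82035571 to 82037453), Ccl7 (82045712 to 82047525), Ccl11 (82057823 to 82062955), Ccl12 (82101845 to 82103400) and Ccl8 (82115185 to 82116799) follow one another with gaps of 8.26, 10.3, 38.9 and 11.8 kb. Further along, 1409 kb after Ccl8, come Ccl5 (83525778 to 83530518, minus strand), Ccl3 (83647844 to 83649355, minus strand) and Ccl4 (83662584 to 83664683, plus strand). On the plus strand of chromosome 8, Ccl22 (94745590 to 94751699) lies 58.8 kb before Ccl17 (94810453 to 94812036). RefSeq has a longer Ccl4 model, from 83648624, that runs across Ccl3 on the opposite strand. The use of strand in counting is not given in the sources used here, so reads from that overlap cannot be assigned to either gene.

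No 50-base stretch of any of the 10 genes' transcripts occurred in the transcripts of another gene. The coding sequences of the closest pair, Ccl3 and Ccl4, were 68.4% identical, and the median over the 45 pairs was 52.4%.

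Promoter sequences are shown for 2 pairs of neighbours, because Ccl8 and Ccl12 lie side by side with unlike levels across the libraries and Ccl17 and Ccl22 form the chromosome 8 pair. Each runs 5′ to 3′ from 250 bases before to 50 bases after the RefSeq start (GRCm38.p6, plus strand), at chr11:82114935-82115234 for Ccl8, chr11:82101595-82101894 for Ccl12, chr8:94810203-94810502 for Ccl17 and chr8:94745434-94745733 for Ccl22. Capitals mark matches to the motifs described after the sequences.
Ccl8: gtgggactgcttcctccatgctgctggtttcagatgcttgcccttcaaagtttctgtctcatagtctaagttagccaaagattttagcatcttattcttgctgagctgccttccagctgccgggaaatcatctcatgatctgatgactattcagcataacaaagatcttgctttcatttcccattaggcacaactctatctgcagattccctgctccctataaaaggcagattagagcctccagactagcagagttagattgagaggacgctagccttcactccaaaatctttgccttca
Ccl12: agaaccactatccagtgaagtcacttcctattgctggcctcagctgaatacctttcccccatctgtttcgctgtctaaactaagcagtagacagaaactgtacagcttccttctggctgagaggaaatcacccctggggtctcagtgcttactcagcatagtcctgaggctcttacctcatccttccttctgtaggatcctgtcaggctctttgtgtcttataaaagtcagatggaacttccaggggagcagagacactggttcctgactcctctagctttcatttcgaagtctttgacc
Ccl17: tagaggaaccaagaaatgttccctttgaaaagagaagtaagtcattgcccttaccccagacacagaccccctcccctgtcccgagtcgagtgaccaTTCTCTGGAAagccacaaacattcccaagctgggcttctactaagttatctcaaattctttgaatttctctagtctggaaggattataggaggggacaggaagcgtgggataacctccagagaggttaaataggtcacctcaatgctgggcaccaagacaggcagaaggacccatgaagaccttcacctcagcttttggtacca
Ccl22: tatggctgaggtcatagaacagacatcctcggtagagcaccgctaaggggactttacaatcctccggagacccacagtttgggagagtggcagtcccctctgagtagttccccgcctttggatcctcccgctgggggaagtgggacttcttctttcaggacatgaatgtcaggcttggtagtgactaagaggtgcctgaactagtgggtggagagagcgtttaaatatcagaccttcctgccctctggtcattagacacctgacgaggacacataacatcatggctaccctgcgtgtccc
Both strands were searched for TGANTCA (AP-1), the STAT6 form TTC, any 4 bases and GAA, the ISRE form GAAA, any 2 bases and GAAA, and the NF-kB form GGG, any 2 bases, TT, any base and CC. Ccl17 held TTCTCTGGAA from base 97 of its window, before the start. The STAT6 form occurs in 6.95% of 32851 mouse promoter windows of this length. The windows of Ccl8, Ccl12 and Ccl22 held no match, nor did that of Ccl3, which was the only other gene of the 10 with a window in the table used. Among all windows, 4.79% held the NF-kB form, 3.44% the ISRE form and 7.81% TGANTCA.

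Ccl2, a main attractant of Ccr2-bearing monocytes, was by far the most abundant of the 10, and its level differed little between tumours. Per kb of exon, its mean over the 12 libraries was 203 CPM, followed by Ccl7 at 63.8, Ccl8 at 49.2, Ccl5 at 16.0, Ccl12 at 11.7, Ccl4 at 5.29, Ccl17 at 4.80, Ccl3 at 4.04, Ccl11 at 2.42 and Ccl22 at 1.37 CPM per kb. The highest library exceeded the lowest 1.75-fold for Ccl2, 2.15-fold for Ccl7 and 2.64-fold for Ccl12, but 4.82-fold for Ccl8, 6.35-fold for Ccl17 and 6.54-fold for Ccl22. Raw counts ran from 43 for Ccl17 to 11997 for Ccl2 in single libraries, so counting error weighs most on Ccl17, Ccl22, Ccl11, Ccl4 and Ccl3.

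**Figure D1:**
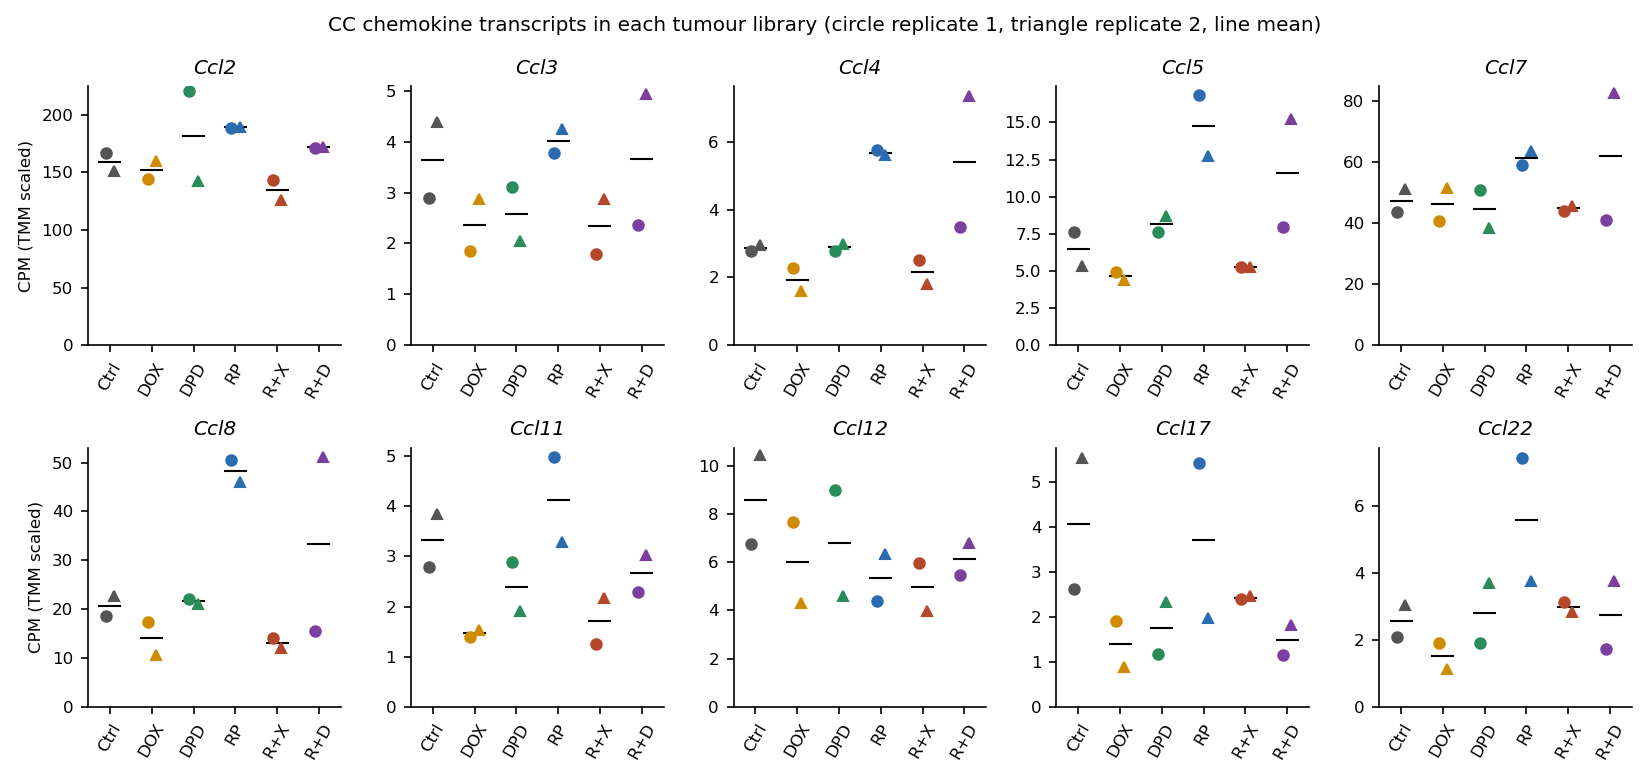
Level of each CC chemokine (vertical axis, CPM, a separate scale per gene starting at 0) in the 2 libraries of each group (horizontal axis), with the group mean as a line. Ccl4, Ccl5 and Ccl8 were highest in both RP libraries and R+D replicate 2, while Ccl2 stayed between 126 and 220 CPM.

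Ccl2 was at 167 and 151 CPM in the Ctrl libraries, 145 and 160 in DOX, 220 and 142 in DPD, 189 and 190 in RP, 143 and 126 in R+X, and 172 and 172 in R+D. The groups followed the order RP, DPD, R+D, Ctrl, DOX and R+X by mean. Among neighbours in that order, R+D did not overlap Ctrl and DOX did not overlap R+X, and the other neighbours overlapped.

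Ccl7, which also attracts monocytes, was at 43.7 and 51.2 CPM in Ctrl, 40.8 and 51.7 in DOX, 50.9 and 38.5 in DPD, 59.1 and 63.9 in RP, 44.1 and 45.8 in R+X, and 41.0 and 82.8 in R+D. R+D replicate 2 held the highest value of the 12 and was 2.02-fold above its partner. Both RP libraries lay above all libraries of Ctrl, DOX, DPD and R+X.

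Ccl8 differed most between libraries among the related Ccl2, Ccl7, Ccl8 and Ccl12. It was at 18.5 and 22.7 CPM in Ctrl, 17.4 and 10.6 in DOX, 22.2 and 21.0 in DPD, 50.6 and 46.0 in RP, 14.0 and 11.97 in R+X, and 15.6 and 51.1 in R+D. No library lay between 22.7 and 46.0 CPM, a gap of 1.02 on the log2 scale, and RP replicate 1, RP replicate 2 and R+D replicate 2 were above it. The 2 R+D libraries lay on either side, 3.29-fold apart.

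Ccl12, whose gene adjoins that of Ccl8, had no such step. Its levels were 6.75 and 10.4 CPM in Ctrl, 7.67 and 4.31 in DOX, 9.0 and 4.58 in DPD, 4.39 and 6.34 in RP, 5.98 and 3.96 in R+X, and 5.45 and 6.80 in R+D. The 3 highest libraries of Ccl12 were Ctrl replicate 2, DPD replicate 1 and DOX replicate 1, and none of these was among the top 3 of Ccl8. All neighbouring groups overlapped, and 65.0% of the variance of its log2 level lay within groups.

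Ccl11, the eosinophil attractant, was low throughout, at 2.79 and 3.85 CPM in Ctrl, 1.39 and 1.54 in DOX, 2.88 and 1.91 in DPD, 4.99 and 3.29 in RP, 1.24 and 2.16 in R+X, and 2.30 and 3.04 in R+D. Both DOX libraries and R+X replicate 1 were below 1.6 CPM, and no other library was. The summed level of 6 eosinophil markers was 0.435 to 3.63 CPM.

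Ccl5 (RANTES), a product of activated T cells and NK cells, was at 7.65 and 5.32 CPM in Ctrl, 4.92 and 4.41 in DOX, 7.61 and 8.67 in DPD, 16.8 and 12.7 in RP, 5.24 and 5.28 in R+X, and 7.99 and 15.2 in R+D. Ccl4 had the same 3 highest libraries, at 2.79 and 2.95 CPM in Ctrl, 2.27 and 1.60 in DOX, 2.77 and 2.99 in DPD, 5.74 and 5.61 in RP, 2.50 and 1.82 in R+X, and 3.47 and 7.35 in R+D. The largest gap between ranked libraries again set RP replicate 1, RP replicate 2 and R+D replicate 2 above the rest, by 0.69 for Ccl4 and 0.56 for Ccl5 on the log2 scale.

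Ccl3, the neighbour of Ccl4, was at 2.88 and 4.39 CPM in Ctrl, 1.85 and 2.88 in DOX, 3.11 and 2.04 in DPD, 3.78 and 4.24 in RP, 1.80 and 2.87 in R+X, and 2.37 and 4.94 in R+D. Here Ctrl replicate 2 was higher than both RP libraries. All neighbouring groups in the order of means overlapped.

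Ccl17 and Ccl22, the Ccr4 ligands, each had single libraries that stood out. Ccl17 was at 2.61 and 5.52 CPM in Ctrl, 1.90 and 0.871 in DOX, 1.18 and 2.32 in DPD, 5.42 and 1.97 in RP, 2.40 and 2.45 in R+X, and 1.14 and 1.82 in R+D. Ctrl replicate 2 and RP replicate 1 were far above the others, and both groups were split by more than 2-fold. Ccl22 was at 2.08 and 3.04 CPM in Ctrl, 1.90 and 1.13 in DOX, 1.91 and 3.69 in DPD, 7.42 and 3.75 in RP, 3.12 and 2.83 in R+X, and 1.73 and 3.74 in R+D. RP replicate 1 alone was above 4 CPM, and RP replicate 2, R+D replicate 2 and DPD replicate 2 were nearly level with each other.

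Tests came from 1 edgeR quasi-likelihood fit of the 12 libraries, with p-values adjusted by the Benjamini-Hochberg method over the 19525 genes. An unadjusted p under 0.05 is used only to choose which fold changes are printed, each with its standard error. Each library has its own code in the labels, but nothing in them assigns the 2 libraries of a group to different mice. The spread behind each p-value may therefore not be that between mice. In a bulk tumour, more cells of a type and more RNA per cell cannot be told apart. In all 14 comparisons, 0 of the 10 chemokines had an edgeR adjusted p under 0.05. Comparisons with Ctrl share the Ctrl libraries.

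RP against Ctrl asks what the conjugate alone was accompanied by. Ccl5, Ccl8, Ccl22 and Ccl4 were higher in RP by about 1 on the log2 scale, and both RP libraries lay above both Ctrl libraries for each of them. The log2 fold change was 1.19 ± 0.31 for Ccl5 (95% interval 0.51 to 1.87, adjusted p = 0.133). It was 1.23 ± 0.43 for Ccl8 (0.27 to 2.19, adjusted p = 0.176). Ccl4 was higher by 0.99 ± 0.35 (0.21 to 1.76, adjusted p = 0.179) and Ccl22 by 1.12 ± 0.49 (0.05 to 2.20, adjusted p = 0.222). None passed after adjustment.

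Over the 10 chemokines, 4 had an unadjusted p under 0.05 in the direction of RP and 0 in that of Ctrl, where 12% and 9.38% of all genes tested had one. The median log2 fold change was 0.35 against 0.06 for all genes, and 8 of 10 were above 0, as were 53.9% of all genes. Both RP libraries lay above both Ctrl libraries for 6 chemokines, with 32.3% of all genes doing so. They lay below both Ctrl libraries for 1, Ccl12, with 27.1% of all genes doing so. edgeR called 0.0154% of all genes here. DESeq2 called 6.2% of them, and of the chemokines Ccl5 alone (adjusted p = 0.0130), while limma-voom called 0.0819% of all genes and 0 of the 10. The edgeR, DESeq2 and limma-voom fits and the other alternatives gave adjusted p-values from 0.0130 to 0.782 for Ccl5. In a fit of the RP and Ctrl libraries alone, Ccl8 passed (adjusted p = 0.0159, range over the alternatives 0.0159 to 0.897). That fit called 505 of 18262 genes.

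**Figure D2:**
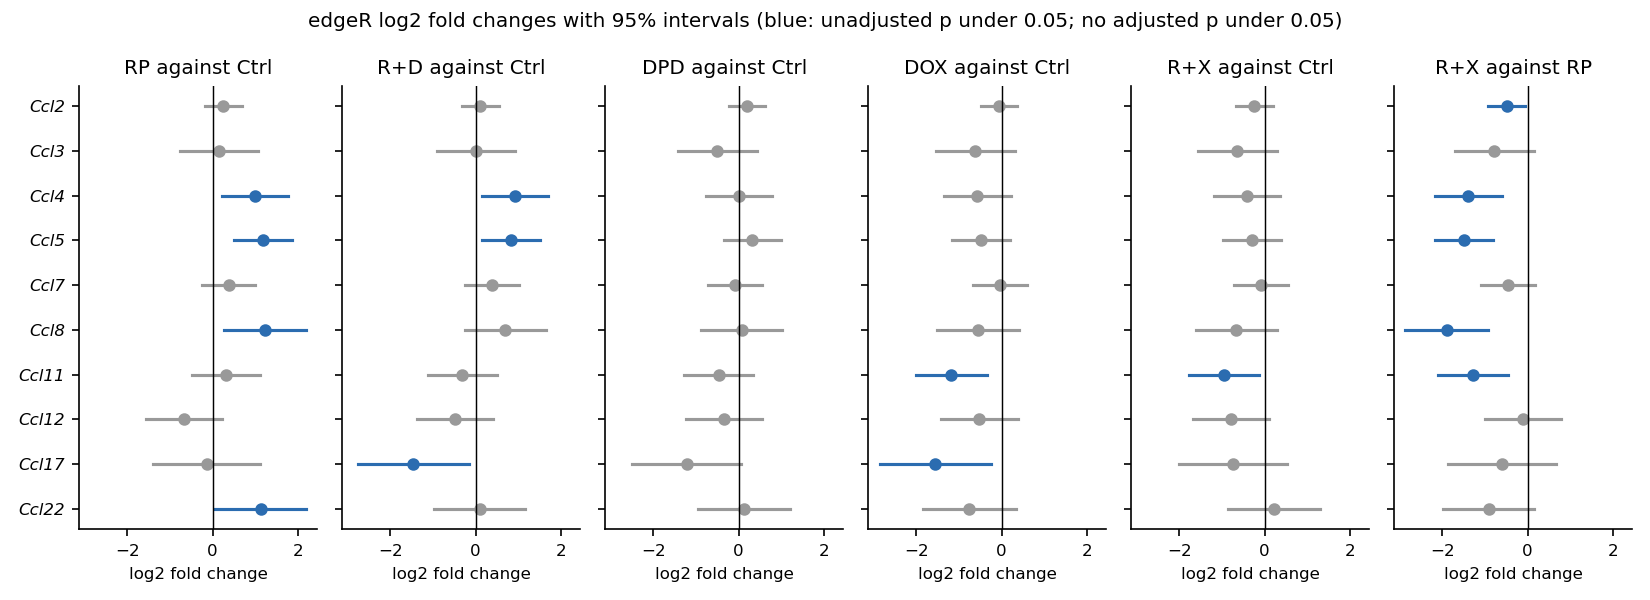
Log2 fold changes of the 10 CC chemokines (points) with 95% intervals (bars) from the edgeR fit, 1 panel per comparison, coloured where the unadjusted p was under 0.05. Intervals of Ccl4, Ccl5 and Ccl8 lay above 0 for RP against Ctrl and below 0 for R+X against RP.

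Markers of several cell types moved with these differences. Of 11 T and NK cell markers tested (12 listed), 8 had an unadjusted p under 0.05 in the direction of RP, where 12% of all genes had one. The summed level of the T and NK cell markers was 74.0 and 84.7 CPM in RP against 37.8 and 30.0 CPM in Ctrl. Of 12 skeletal muscle markers, 11 had such a p, with sums of 239 and 88.6 CPM against 26.3 and 24.0 CPM. Of 14 macrophage and monocyte markers, 5 had such a p, with sums of 2058 and 1822 CPM in RP and 1614 and 1767 CPM in Ctrl. Lyz2, the most abundant of these, had a mean of 903 CPM over the 12 libraries. Of 6 regulatory T cell markers, 4 had one, with sums of 38.1 and 30.1 against 16.0 and 15.1 CPM. So did 5 of 7 endothelial, 4 of 9 fibroblast, 3 of 10 dendritic cell and 3 of 5 tested neutrophil markers. None did of 5 epithelial and 2 eosinophil markers tested or of 10 skin markers, and 1 epithelial marker was lower at that threshold. No T cell, muscle or macrophage marker listed was at 0 in every library. With a muscle score (mean log2 level of the muscle markers) added to the fit, the differences were 0.49 for Ccl5, 0.22 for Ccl4, 0.10 for Ccl8 and 0.06 for Ccl22. The part of T cells, regulatory T cells, macrophages, endothelial cells, fibroblasts, neutrophils and dendritic cells in these differences was not tested.

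Single libraries decided part of these values. Without RP replicate 1 the Ccl22 difference was 0.52. Leaving out any 1 library left Ccl4 between 0.93 and 1.02, Ccl5 between 0.94 and 1.48 and Ccl8 between 1.09 and 1.38.

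In DOX against Ctrl, all 10 chemokines had a lower fitted level in DOX. Ccl11 was lower by 1.18 ± 0.37 on the log2 scale (adjusted p = 1) and Ccl17 was lower by 1.55 ± 0.59 (adjusted p = 1). Neither passed after adjustment, and the Ccl17 difference was -0.92 without Ctrl replicate 2. These 2 of 10 compare with 1.22% of all genes at an unadjusted p under 0.05 and lower in DOX, and 0 of 10 were higher, where 0.86% of all genes were. The median of the 10 was -0.56 against 0.01 for all genes, 48.5% of which were below 0. Both DOX libraries lay below both Ctrl libraries for 7 of the 10, with 9.43% of all genes doing so. DESeq2 called 0.00512% of all genes, and edgeR and limma-voom 0%, with 0 of the 10 among them. The sum of T and NK cell markers was 28.0 and 24.5 CPM in DOX, below both Ctrl libraries, and the macrophage sum was 1629 and 1169 CPM, and their part in these values was not tested.

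DPD, the prodrug given alone, left the 10 chemokines on both sides of Ctrl, with 5 above and 5 below, where 51.3% of all genes were above and 48.7% below. The median was -0.04 against 0.01 for all genes. The smallest p belonged to Ccl17, with a log2 fold change of -1.22 ± 0.58 (adjusted p = 0.725). That value was -0.58 without Ctrl replicate 2 and -0.81 without DPD replicate 1. At an unadjusted p under 0.05, 0 of the 10 were higher and 0 lower, where 2.61% and 1.4% of all genes were. DESeq2 called 0.0359% of all genes, and edgeR and limma-voom 0%, with 0 of the 10 among them.

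R+X against Ctrl gave 9 of 10 chemokines below Ctrl, where 49.3% of all genes were, with a median of -0.52 against 0.01 for all genes. Both R+X libraries lay below both Ctrl libraries for 8 of the 10, with 27.5% of all genes doing so. Ccl11 was lower by 0.96 ± 0.37 (adjusted p = 0.575), and the difference was -0.61 without R+X replicate 1. It was the 1 chemokine of 10 with an unadjusted p under 0.05 in that direction, where 2.47% of all genes had one, and 0 of 10 had one in the other, where 3.53% of all genes did. DESeq2 called 0.0205% of all genes, and edgeR and limma-voom 0%, with 0 of the 10 among them.

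R+D against Ctrl rested largely on 1 library for Ccl4 and Ccl5. Ccl4 was higher by 0.92 ± 0.35 and Ccl5 by 0.84 ± 0.31, while Ccl17 was lower by 1.46 ± 0.59, each with an adjusted p of 0.314. Without R+D replicate 2 the differences were 0.26 for Ccl4 and 0.29 for Ccl5, and without Ctrl replicate 2 that of Ccl17 was -0.82. With the muscle score added to the fit, they were 0.23 for Ccl4 and 0.25 for Ccl5. At an unadjusted p under 0.05, 2 of 10 were higher and 1 was lower, where 8.69% and 6.66% of all genes were. DESeq2 called 1.19% of all genes, and edgeR and limma-voom 0%, with 0 of the 10 among them. The T and NK cell sum was 45.7 CPM in R+D replicate 1 and 89.4 CPM in R+D replicate 2, and the muscle sum 26.6 and 313 CPM.

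The groups with the conjugate (RP, R+X and R+D) were also compared with the groups without it (Ctrl, DOX and DPD), averaged over the drug settings. Ccl4 was higher with the conjugate by 0.68 ± 0.20 (95% interval 0.23 to 1.13, adjusted p = 0.172) and Ccl5 by 0.62 ± 0.18 (0.23 to 1.02, adjusted p = 0.168). Ccl22 was higher by 0.69 ± 0.28 (adjusted p = 0.220) and Ccl8 by 0.58 ± 0.25 (adjusted p = 0.229). The interval of Ccl2 was -0.23 to 0.23. Thus 4 of 10 were higher at an unadjusted p under 0.05 and 0 lower, where 10.9% and 9.47% of all genes were.

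Other fits moved this average. DESeq2 called Ccl4 (adjusted p = 0.0461) and Ccl5 (adjusted p = 0.0324) among 4.87% of all genes, while edgeR and limma-voom each called 0.0154% of all genes and 0 of the 10. With the muscle score added to the fit, Ccl4 and Ccl5 were at 0.13 and 0.13, Ccl8 at -0.27 and Ccl22 at -0.05. Without R+D replicate 2, Ccl8 was at 0.20 and Ccl22 at 0.46. The average joins groups that differ: RP and R+X lay on opposite sides of Ctrl for Ccl4, Ccl5 and Ccl8.

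The conjugate with DOX beside the tumour was set against the conjugate alone, and this comparison held the smallest p-values of the 14 for these genes. All 10 chemokines were lower in R+X than in RP. The log2 fold change was -1.49 ± 0.31 for Ccl5 (adjusted p = 0.219), -1.90 ± 0.44 for Ccl8 (adjusted p = 0.252) and -1.39 ± 0.35 for Ccl4 (adjusted p = 0.278). It was -1.28 ± 0.37 for Ccl11 (adjusted p = 0.315) and -0.49 ± 0.19 for Ccl2 (adjusted p = 0.477). Both R+X libraries lay below both RP libraries for 8 of the 10, with 23.7% of all genes doing so.

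These 5 of 10 at an unadjusted p under 0.05 compare with 6.43% of all genes lower in R+X, and 0 of 10 were higher, where 2.25% of all genes were. The median was -0.84 against 0.00 for all genes, 50.4% of which were below 0. DESeq2 called 3 of the 10, Ccl4 (adjusted p = 0.0261), Ccl5 (0.00155) and Ccl8 (0.00226), among 1.56% of all genes, while edgeR (0% of all genes) and limma-voom (0.0256%) called 0. Over the alternatives the adjusted p ran up to 1 for each of these 3. In a fit of the R+X and RP libraries alone, Ccl8 passed (adjusted p = 0.0414). It was the only gene called of 18343 tested.

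Markers moved in the same direction here. All 11 tested T and NK cell markers and all 12 muscle markers were lower in R+X at an unadjusted p under 0.05, with T and NK cell sums of 39.2 and 25.9 CPM and muscle sums of 21.8 and 11.2 CPM in R+X. With the muscle score added to the fit, the differences were -0.64 for Ccl5, -0.52 for Ccl8 and -0.48 for Ccl4. At an unadjusted p under 0.05, 5 of 6 regulatory T cell, 5 of 9 fibroblast and 4 of 14 macrophage and monocyte markers were also lower in R+X. So were 3 of 7 endothelial, 3 of 5 tested neutrophil, 2 of 10 dendritic cell and 1 of 2 tested eosinophil markers. Of all genes, 6.43% were lower in this way. Of 5 tested epithelial markers 1 was higher, and 0 of 10 skin markers had such a p. The part of T and NK cells and of these other cell types was not tested.

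R+D against RP left 8 of 10 chemokines lower and 2 higher, where 49.2% of all genes were lower, with a median of -0.24. Ccl17 was lower by 1.32 ± 0.58 (adjusted p = 1), but the difference was -0.39 without RP replicate 1, the library in which Ccl17 was 2.76-fold above its partner. That 1 of 10 compares with 1.95% of all genes, and 0 of 10 were higher, where 0.784% of all genes were. R+X against DOX, which share the drug at 14 µg but not its route, had 5 chemokines on each side of 0, where 48.9% of all genes were above and 50.9% below, and a median of 0.07. Its smallest p was that of Ccl22, at 0.98 ± 0.49 (adjusted p = 0.965), or 0.65 without DOX replicate 2. No chemokine had an unadjusted p under 0.05, where 1.75% of all genes were higher and 1.04% lower. R+D against DPD had 6 of 10 higher, where 51.4% of all genes were, and 1 of these, Ccl4, had an unadjusted p under 0.05 (0.91 ± 0.35, adjusted p = 1), where 1.52% of all genes had one, and 0 were lower, where 0.789% were. The Ccl4 value was 0.26 without R+D replicate 2 and 0.13 with the muscle score. In these 3 comparisons DESeq2 called 0.0512%, 0.0154% and 0.0359% of all genes in that order, and edgeR and limma-voom 0%, with 0 of the 10 among them.

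DPD and DOX, the prodrug and the parent drug, were compared at the matched dose of 14 µg, once without and once with the conjugate. Given alone, DPD was accompanied by a higher Ccl5 than DOX, by 0.80 ± 0.31 (95% interval 0.12 to 1.48, adjusted p = 0.979). Both DPD libraries lay above both DOX libraries for 5 of the 10, with 13.4% of all genes doing so, and 9 of 10 were above 0, as were 47.6% of all genes. Ccl5 was the 1 chemokine with an unadjusted p under 0.05, where 3.01% of all genes were higher in DPD and 1.28% lower. All 11 tested T and NK cell markers had a higher fitted level in DPD, 3 of them at an unadjusted p under 0.05, with sums of 41.5 and 46.6 CPM in DPD and 28.0 and 24.5 CPM in DOX, and their part in the Ccl5 difference was not tested. The difference passed after adjustment for none of the 10 chemokines. For all but Ccl5, the 95% interval of the difference included 0. Its 95% interval ran from -0.17 to 0.68 for Ccl2, from -0.68 to 0.58 for Ccl7, from -0.33 to 1.58 for Ccl8, from -0.71 to 1.08 for Ccl12, from -0.21 to 1.36 for Ccl4, from -0.81 to 1.05 for Ccl3, from -0.11 to 1.53 for Ccl11, from -0.96 to 1.63 for Ccl17 and from -0.21 to 1.98 for Ccl22. DESeq2 called 0.0461% of all genes, and edgeR and limma-voom 0%, with 0 of the 10 among them.

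With the conjugate, R+D exceeded R+X in Ccl4 by 1.32 ± 0.35 (0.54 to 2.11, adjusted p = 0.820), in Ccl5 by 1.14 ± 0.31 (0.46 to 1.82, adjusted p = 0.839) and in Ccl8 by 1.36 ± 0.44 (0.39 to 2.32, adjusted p = 0.892). Without R+D replicate 2 these were 0.67, 0.59 and 0.25, and with the muscle score 0.49, 0.40 and 0.01. At an unadjusted p under 0.05, 3 of 10 were higher and 0 lower, where 3.75% and 1.52% of all genes were. DESeq2 called 0.215% of all genes, and edgeR and limma-voom 0%, with 0 of the 10 among them. At the same threshold, 8 of 11 tested T and NK cell markers and 12 of 12 muscle markers were higher in R+D. The T and NK cell sums were 45.7 and 89.4 CPM in R+D and 39.2 and 25.9 CPM in R+X, and the part of these cells in the differences was not tested. The intervals of the other 7 chemokines included 0, from -0.07 to 0.78 for Ccl2, from -0.17 to 1.09 for Ccl7, from -0.60 to 1.20 for Ccl12, from -0.29 to 1.57 for Ccl3, from -0.17 to 1.46 for Ccl11, from -2.0 to 0.57 for Ccl17 and from -1.20 to 0.94 for Ccl22.

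Whether the difference that came with the conjugate depended on the drug was tested as an interaction. With DOX, that of Ccl5 was smaller than without a drug by 1.02 ± 0.43 on the log2 scale (adjusted p = 0.998), and -0.43 was left with the muscle score. This 1 of 10 compares with 2.75% of all genes in that direction, and 0 of 10 had one in the other, where 0.958% did. With DPD the smallest p was that of Ccl22 (-1.16 ± 0.68, adjusted p = 0.840), which ran from -0.57 without RP replicate 1 to -1.81 without R+D replicate 2. Here 0 of 10 had an unadjusted p under 0.05, where 1.01% of all genes were positive and 3.45% negative. DESeq2 called 0.0307% of all genes with DOX and 0.0563% with DPD, and edgeR and limma-voom 0%, with 0 of the 10 among them.

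**Figure D3:**
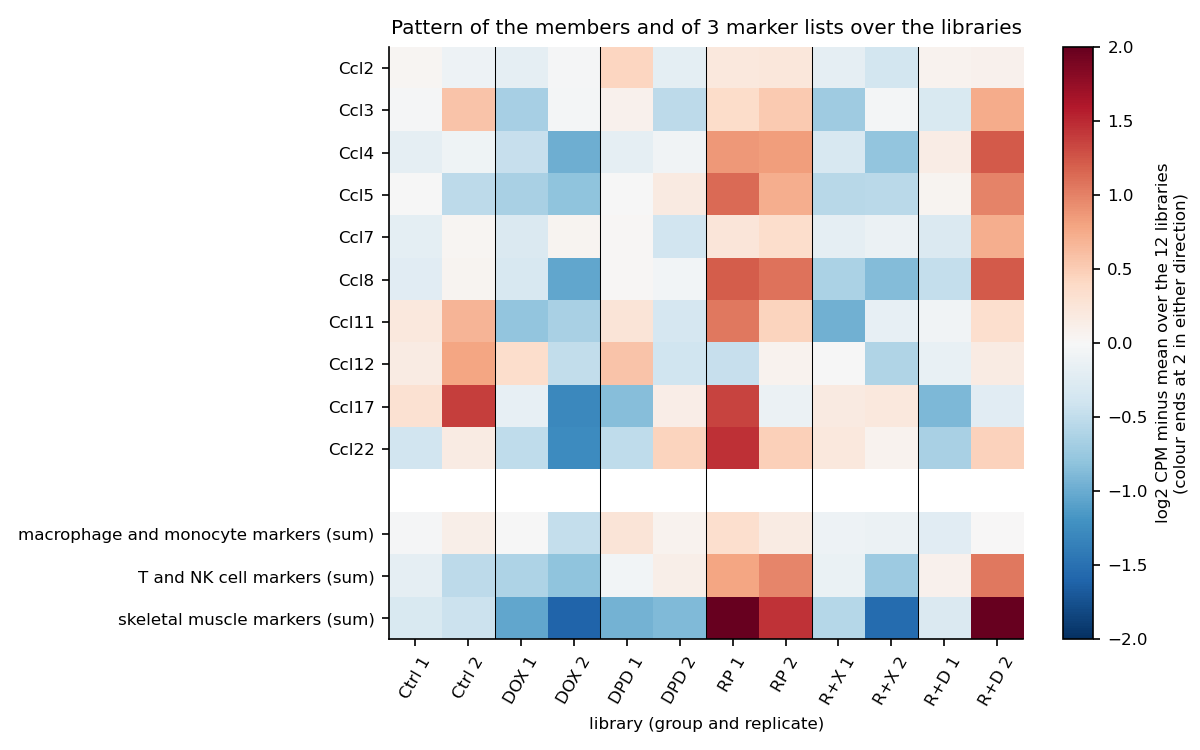
Log2 CPM of the 10 CC chemokines and of 3 marker lists (rows) in each library (columns), as the difference from the mean over the 12 libraries (colour, ends at 2 in either direction). RP replicate 1, RP replicate 2 and R+D replicate 2 are the 3 highest libraries of Ccl4, Ccl5, Ccl7, Ccl8 and Ccl22, and share none of the top 3 of Ccl12.

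Across libraries the chemokines did not move as 1 block. RP replicate 1, RP replicate 2 and R+D replicate 2 were the top 3 for Ccl4, Ccl5, Ccl7, Ccl8 and Ccl22. Since these 3 libraries form a separate cluster in Ccl4, Ccl5 and Ccl8, no correlation over the 12 is given for pairs among those genes. It was computed within the other 9 libraries. There, Ccl4 and Ccl5 had a Pearson r of 0.767 (exact permutation p = 0.0134, adjusted over 6 values 0.0348) and a Spearman rho of 0.883 (exact p = 0.00308, adjusted 0.0185), with r = 0.689 without the 2 libraries farthest from the median. Ccl4 and Ccl8 had r = 0.761 (exact p = 0.0174, adjusted 0.0348) and rho = 0.633 (exact p = 0.0760, adjusted 0.114), but r was 0.161 without the 2 farthest libraries, so the relation rests on those. Ccl5 and Ccl8 had r = 0.582 (exact p = 0.103, adjusted 0.124) and rho = 0.550 (exact p = 0.133).

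Some pairs outside that group tracked each other over all 12 libraries, among 45 pairs tested with 100000 permutations, which exchanged libraries across the treatments. Deviations from group means mirror each other within a group of 2, so r on them rests on 6 groups, not 12 separate values. Ccl3 and Ccl7 had r = 0.853 (adjusted permutation p = 0.00225) and rho = 0.818 (adjusted p = 0.0189), and r was 0.869 without the 2 farthest libraries and 0.892 on deviations from group means. Ccl3 and Ccl11 had r = 0.824 (adjusted p = 0.0115) and rho = 0.888 (adjusted p = 0.00495), with 0.818 and 0.728 in the same checks. Ccl17 and Ccl22, neighbours on chromosome 8, had r = 0.754 (adjusted p = 0.0293) but rho = 0.545 (adjusted p = 0.151), with 0.724 without the 2 farthest and 0.929 on deviations from group means. The adjoining Ccl12 and Ccl8, whose promoters are shown above, had r = 0.201 (adjusted p = 0.632) and rho = 0.476 (adjusted p = 0.220). Their r was 0.484 without the 2 farthest libraries and 0.461 on deviations from group means.

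The genes most like each chemokine were taken as the 3 with the highest Pearson r of log2 CPM over the 12 libraries, among 14805 named genes. For Ccl4 they were Pvalb (r = 0.976) and Ckm (0.964), both genes of muscle fibres, and Nkg7 (0.960), a granule gene of NK and cytotoxic T cells. For Ccl5 they were Gimap3 (0.972), Egfr (0.971) and Fam189a2 (0.960), and for Ccl8 the first were Wfdc17 (0.970) and Bcam (0.951). For Ccl2 the first was Fcgr1 (0.850), an Fc receptor of macrophages and monocytes. For Ccl11 they were Cd209g (0.914), Acta2 (0.903) and Mfap5 (0.899), the last of these a matrix gene. For Ccl22 the first was Kcp (0.924), for Ccl17 Aph1c (0.906), for Ccl12 Gon7 (0.953), for Ccl7 Mlana (0.903) and for Ccl3 Snord99 (0.866). The r values of Ccl4, Ccl5 and Ccl8 over the 12 include the step between the cluster and the other libraries. Over the 9 libraries outside the cluster, the Ccl7 and Mlana r was 0.419, while that of Ccl4 and Nkg7 was 0.868 and that of Ccl12 and Gon7 was 0.950. There, r with Ccl4 was 0.923 for Pvalb and 0.853 for Ckm. With Ccl5 it was 0.888 for Gimap3, 0.908 for Egfr and 0.858 for Fam189a2, and with Ccl8 0.912 for Wfdc17 and 0.888 for Bcam. All these share the same 12 libraries and their makeup.

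**Figure D4:**
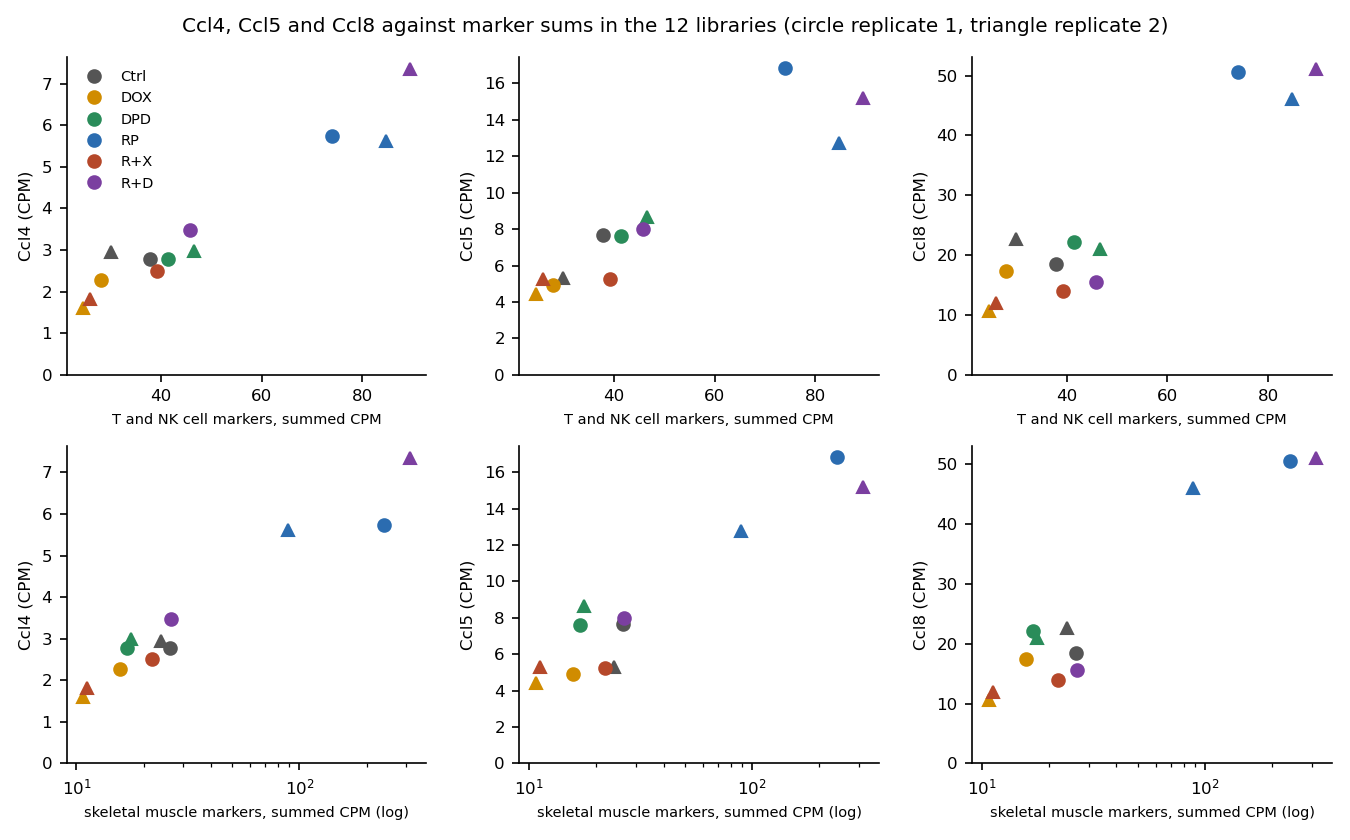
Ccl4, Ccl5 and Ccl8 (vertical axes, CPM from 0) against summed marker levels (horizontal axes, CPM, log scale where labelled) in the 12 libraries. The 3 libraries with the highest T and NK cell sums (74.0 to 89.4 CPM) and muscle sums (88.6 to 313 CPM) are RP replicate 1, RP replicate 2 and R+D replicate 2.

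Receptors of these ligands were measured in the same libraries. Ccr2, the receptor of Ccl2, Ccl7 and Ccl12, had a group mean of 25.9 ± 3.02 CPM in Ctrl, 18.5 ± 11.1 in DOX, 24.9 ± 0.910 in DPD, 25.3 ± 2.64 in RP, 22.7 ± 1.94 in R+X and 24.2 ± 3.93 in R+D (SD, 2 libraries each). Ccr1 lay between 18.8 and 30.0 CPM. Ccr3, Ccr4 and Ccr8 were all below 1 CPM in every library, with Ccr4 at most 0.471 CPM.

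Of the 8 CC receptors tested out of 11 listed, 0 passed the edgeR adjusted threshold for RP against Ctrl, and 3 had an unadjusted p under 0.05, all higher in RP, where 12% of all genes were higher and 9.38% lower. Ccr7, the homing receptor of T cells and mature dendritic cells, was at 5.27 and 3.04 CPM in RP and 2.1 and 1.07 in Ctrl, a log2 difference of 1.39 ± 0.45 (adjusted p = 0.166). Ccr9 had 0 counts in Ctrl and 0.278 CPM in RP. For R+X against RP, 0 of the 8 had an unadjusted p under 0.05, where 2.25% of all genes were higher and 6.43% lower.

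Among 9 other CC ligands tested out of 12 listed, 3 had an unadjusted p under 0.05 and were higher in RP than in Ctrl, where 12% of all genes were, and 0 passed after adjustment. Ccl6, a macrophage chemokine, was at 216 and 246 CPM in RP and 116 and 167 in Ctrl (0.71 ± 0.27, adjusted p = 0.192). Ccl21a, which binds Ccr7, was at 3.56 and 1.02 CPM in RP and 0.412 and 0.302 in Ctrl (2.67 ± 0.79, adjusted p = 0.154), and Ccl21b differed by 2.96 ± 1.22 (adjusted p = 0.208). Ccl21a and Ccl21b are near-identical copies, and how the counting split their reads is not given in the sources used here. Of 9 cytokines tested that are known to induce chemokines, Il1b (1.11 ± 0.43, adjusted p = 0.192) and Il33 (1.19 ± 0.53, adjusted p = 0.233) were higher at an unadjusted p under 0.05, against the same 12% of all genes. Ifng, an inducer of Ccl5, did not reach that threshold for RP against Ctrl. It was at 1.83 and 1.45 CPM in RP, 1.90 in R+D replicate 2 and 0.276 to 1.22 CPM in the other 9 libraries, and its part in the Ccl5 levels was not tested.

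**Figure D5:**
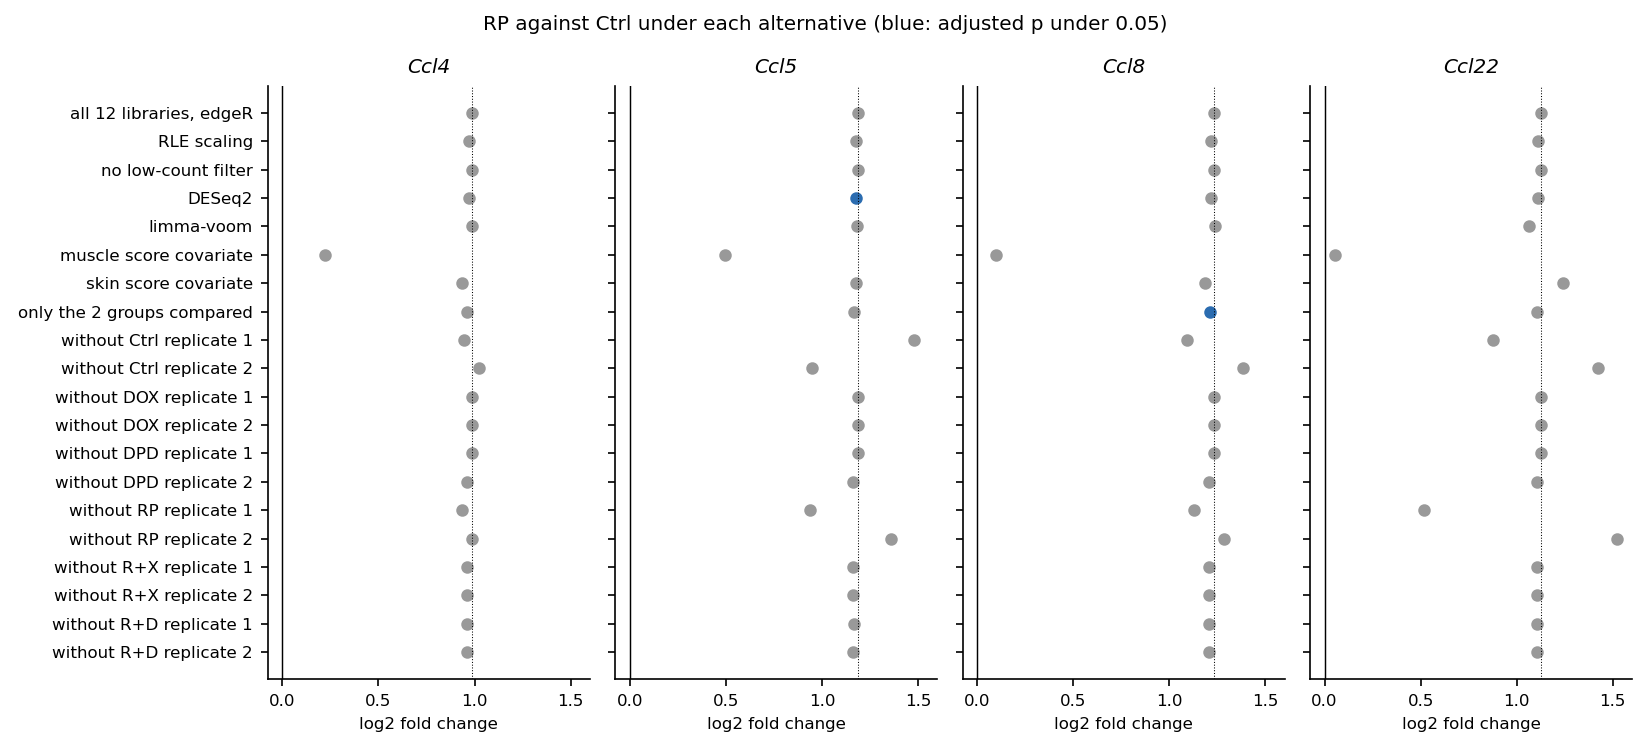
RP against Ctrl log2 fold changes (horizontal axis) of single CC chemokines under the reported fit and each alternative (rows), coloured where the adjusted p was under 0.05. The muscle score covariate gave the values nearest 0, from 0.06 for Ccl22 to 0.49 for Ccl5, and no alternative turned a direction in this comparison.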

How the data were processed

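Total tumour RNA was taken with TRIzol and made into libraries with the NEBNext Ultra kit, per the labels' protocols. HISAT2 2.1.0, StringTie 1.3.5, DESeq2 and GRCm38 are listed in the submitters' processing notes. Which tool did what, which annotation was used and whether strand was used are not stated there. The authors deposited raw counts per gene, in whole numbers. The table of all libraries was used, and its columns matched the 12 single-library files.

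Groups came from the agent label. Replicate numbers only name libraries. Every library (46547114 to 56462259 counts) entered 1 edgeR 4.0.16 quasi-likelihood fit in R 4.3.3. TMM scaling and filterByExpr were used, leaving 19525 genes and 6 residual degrees of freedom, and the biological coefficient of variation was 0.257. Calls needed a Benjamini-Hochberg adjusted p under 0.05. A log2 fold change is given with its standard error, and a group level with the SD of 2 libraries. The fit was tested on simulated data. The alternatives tried were scaling by RLE, testing without the low-count filter, DESeq2 1.42.0, limma-voom (limma 3.58.1), each library left out, a muscle or skin score as covariate, and the compared groups alone.

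All 10 chemokines are named, with a test where the unadjusted p was under 0.05 or was the smallest. Of other lists at most 4 such genes are named with a test, and only levels are given for some further genes. Genes without an established symbol were not considered among the most alike genes, nor were repeated names, the latter after their values were seen. The members and lists were chosen with earlier results of these data known. Promoters are from RefSeq (GRCm38.p6), which had 5 of the 10 genes. Some genes and motifs examined are not reported here.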

Additional observations from a re-analysis of the deposited data

How the results depend on the processing

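No chemokine of the 10 passed the edgeR threshold in any comparison, and the alternatives changed that in 3 comparisons. DESeq2 called 1 chemokine for RP against Ctrl, 2 for the conjugate groups against the groups without it and 3 for R+X against RP. Fits of only the 2 compared groups called 1 chemokine, Ccl8, for RP against Ctrl, among 505 of 18262 genes. For R+X against RP they called Ccl8 as the only gene of 18343. Fits with 1 library left out leave 1 library in a group, so their number of calls, over all genes or the 10, is not read. Of 545 alternative values of the 29 printed fold changes, 535 kept their direction and their side of the threshold, 8 passed it, and 2 reversed, both with the muscle score in the conjugate average: Ccl8 to -0.27 and Ccl22 to -0.0456. Moves of over 1.5 times, 38 in all, came from the muscle score or from single libraries and stand beside the results; the cause was not tested. No paired analysis was possible because the labels give no replicate numbers. With 2 libraries a group, leaving 1 out means that its partner is taken to vary as the other groups do. Depth limits Ccl17 most, with 43 counts in DOX replicate 2.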
